A study of Mus musculus with 25 samples.

Results

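Nodal, Lefty1, Lefty2, Tdgf1, Acvr1b, Acvr2b, Smad2, Smad3, Smad7 and Furin, 10 genes of the Nodal signalling pathway, were followed through RNA and histone methylation data of mouse embryonic stem cells (mESCs) and through RNA of mouse 8-cell embryos. They were taken by symbol from the 19434 gene symbols shared by both RNA tables, and all 10 were found in each. The set was chosen with the fall of Lefty2 in mESCs lacking Dot1L already known, so the RNA values of the 10 genes in mESCs are given as a description, with no test. Dot1L is a histone methyltransferase that acts on lysine 79 of histone H3 in the bodies of transcribed genes. The mESCs were of the v6.5 line, without treatment, and were either wild type (WT) or Dot1L knockout (KO). Their RNA was sequenced in 3 WT and 2 KO libraries. Peak lists of dimethylated and trimethylated lysine 79 (H3K79me2 and H3K79me3), made by chromatin immunoprecipitation, came from 2 WT and 2 KO libraries per mark. The embryos came from B6D2F1 females crossed to Cast/EiJ males, were collected 56 hours after fertilization and had received the solvent DMSO or SGC0946, an inhibitor of Dot1L. Each treatment had 2 pools of 30 to 35 embryos. The deleted part of Dot1l, the number of KO clones, the culture medium, and the dose and length of the inhibitor treatment are not given in the sources used here. Nothing in the labels says that replicates came from separate cultures, so p-values measure the spread between these samples, which may be technical.

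Nodal is a secreted ligand of the TGF-beta superfamily that is cleaved by proprotein convertases such as Furin. With the co-receptor Tdgf1 (Cripto) it engages type I and type II activin receptors, among them Acvr1b and Acvr2b, which phosphorylate Smad2 and Smad3. These enter the nucleus with Smad4 and, with partners such as Foxh1, switch on targets that include Nodal itself and its secreted antagonists Lefty1 and Lefty2, while Smad7 inhibits the receptors. In the early embryo the pathway patterns the body axes and the germ layers, and in mESCs it is active without added ligand.

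Total counts ran from 26860527 to 33755064 per mESC library and from 24950199 to 32479590 per embryo library. Dot1l RNA was still present in the KO libraries, at 2319 and 2201 counts against 2878, 3151 and 2849 in WT, which is a mean of 76.5 against 100 CPM (counts scaled to a common library total). Counts over the whole gene do not check a deletion whose position is not known. The KO peak lists held 16 and 12 H3K79me2 peaks against 66834 and 64084 in WT, and 178 and 328 H3K79me3 peaks against 19800 and 7338. In mESCs the summed level of 8 markers of pluripotent cells was 3677 to 3729 CPM in WT and 2951 to 3115 in KO, with 1 called higher and 4 lower. That of 6 markers of primitive endoderm was 18.4 to 19.96 against 33.5 to 35.6, with 4 of the 6 called higher, Gata6 among them. Gata4 and Sox7 were not called, with means of 5.47 and 2.85 CPM in WT and 4.99 and 2.51 in KO. The sum of 6 trophectoderm markers was 44.9 to 47.6 against 59.6 to 63.2, with 4 called higher and 1 lower. That of 8 fibroblast markers, which feeder cells would bring, was 154 to 197.4 against 196.8 to 245, so the ranges overlapped. The 3 called higher included Col1a1, with a mean of 52.2 CPM in WT and 80.2 in KO. Col3a1, at 28.1 and 25.6, was not called, and Lum was under 1 CPM in every library. Among all tested genes 22.3% were called higher and 21.4% lower. The cumulus cell list summed to 49.6 to 58.7 against 67.2 to 85.5. Most of that sum was Ptgs2, with a mean of 42.8 CPM in WT and 62.7 in KO. The 8-cell list summed to 1288 to 1306 against 914 to 954. The 8-cell list shares Pou5f1 and Nanog, which make up most of its sum, with the pluripotent list, so its lower sum largely repeats that list, while its member Zscan4d was higher, at 12.2 against 4.71 CPM. The part of these shifts in the results below was not tested. In bulk samples such as these, fewer cells of a type and less RNA per cell cannot be told apart.

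The sequences ahead of Nodal and Tdgf1 are shown because in WT mESCs the methylated stretch of both genes opened just after their starts, at 0.299 kb for Nodal and 0.372 kb for Tdgf1, while their RNA levels differed between KO and WT in opposite directions. Each line holds the 250 bases before the transcription start on the gene's own strand, from RefSeq, build GRCm38.p6. Nodal's window is chr10:61417722-61417971 on the plus strand, and Tdgf1's is chr9:110946159-110946408 on the minus strand. Capitals mark CAGAC, a sequence that SMAD proteins bind.
Nodal: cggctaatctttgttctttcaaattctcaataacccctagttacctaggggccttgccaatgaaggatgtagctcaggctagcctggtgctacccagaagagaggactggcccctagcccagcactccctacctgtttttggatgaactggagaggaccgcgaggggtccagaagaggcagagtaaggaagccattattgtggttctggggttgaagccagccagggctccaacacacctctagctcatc
Tdgf1: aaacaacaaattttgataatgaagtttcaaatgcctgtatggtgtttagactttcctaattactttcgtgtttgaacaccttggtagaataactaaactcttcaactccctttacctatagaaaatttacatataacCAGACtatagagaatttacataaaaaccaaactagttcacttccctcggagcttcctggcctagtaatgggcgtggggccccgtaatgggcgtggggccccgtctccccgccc

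Windows were at hand for 6 of the 10 genes (Nodal, Tdgf1, Acvr1b, Acvr2b, Smad3 and Furin, the last with 2 starts). The Acvr2b window (chr9:119401928-119402177) and that of the inner Furin start (chr7:80402813-80403062) lie inside the gene bodies used for the peaks. CAGAC, searched on both strands, stood once ahead of Tdgf1, at 113 to 109 bases before the start. It stood once ahead of that Acvr2b start on the minus strand, 2 times ahead of the outer Furin start and once ahead of the inner one. It stood nowhere in the windows of Nodal, Acvr1b and Smad3. It occurs in 42.2% of the 32851 windows of the same length. AATCCACA and AATACACA, which Foxh1 binds, were in none of the 6 genes' windows and in 0.718% and 0.895% of all windows. The window of Nodal was 53.2% G and C, and that of Tdgf1 42.0%.

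Among the 10 genes in mESCs, the antagonists Lefty2 and Lefty1 were 3.36-fold and 3.01-fold lower in KO than in WT, Nodal was 1.36-fold and Smad3 1.26-fold lower, and Acvr1b, Tdgf1 and Smad2 were 1.28-fold, 1.25-fold and 1.11-fold higher. The WT and KO libraries did not overlap for these 7 genes and overlapped for Acvr2b, Smad7 and Furin. In an edgeR quasi-likelihood fit over all 19561 tested genes, 7 of the 10 were called at an adjusted p under 0.05, 3 higher and 4 lower. Of all tested genes 43.7% were called, 22.3% higher and 21.4% lower, and 62.5% had groups that did not overlap. Because the genes were chosen on this contrast, nothing is read from these counts. With upper-quartile scaling, 63.4% of all calls were higher, against 51.0% with the scaling used here. Levels are CPM scaled by edgeR and compare libraries for 1 gene, not genes with each other.

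**Figure D1:**
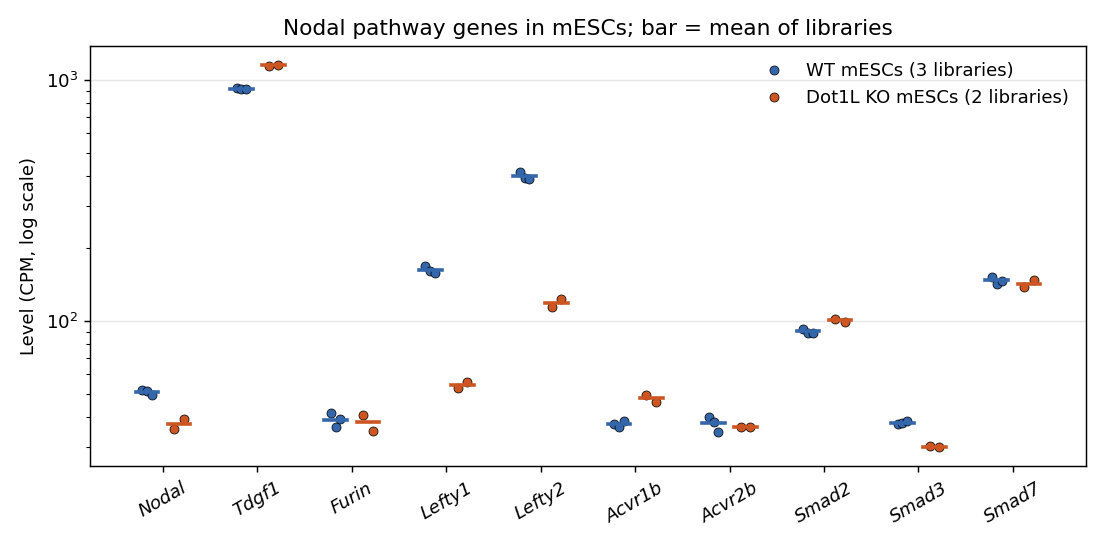
Level of each of the 10 genes in mESCs (CPM, log axis), with 1 point per library (3 WT in blue, 2 KO in orange) and a bar at the mean. The KO points of Lefty1 (52.6 and 55.6) and Lefty2 (114 and 123) lie well below every WT point of the same gene, while Acvr2b, Smad7 and Furin overlap.

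The ligand came first in the pathway. Nodal (ENSMUSG00000037171, chr10:61417972-61425338) measured 51.8, 51.0 and 49.5 CPM in WT, against 35.6 and 39.1 in KO. Both KO values lay below every WT value. The log2 fold change of KO over WT was -0.44 (standard error 0.055). Furin, the convertase, was at 41.5, 36.3 and 39.2 CPM in WT and 40.9 and 35.1 in KO. Its log2 fold change was -0.04 (standard error 0.072), and it turned to 0.03 with upper-quartile scaling, to 0.01 without WT replicate 1 and to 0.07 without KO replicate 2. The groups overlapped, and both held a library near 36 and one near 41 CPM.

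Tdgf1 (chr9:110939608-110946158), the co-receptor that Nodal needs, was at 930, 919 and 915 CPM in WT and at 1148 and 1154 in KO. Every KO value was higher than every WT value, and the SD was 7.52 in WT (n = 3) and 4.09 in KO (n = 2). Its log2 fold change was 0.32 (standard error 0.033). A pseudogene of near-identical sequence, Tdgf1-ps1, had 592, 653 and 660 counts in WT, against 886 and 893 in KO, which makes a log2 fold change of 0.49. These counts are small beside the 25630, 29912 and 26321 of Tdgf1 in WT and its 32683 and 35444 in KO, so moving all of them to Tdgf1 would change its level by little. A second copy, Tdgf1-ps2, was under 1 CPM in every library.

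The antagonists showed the largest differences of the 10. Lefty2 (ENSMUSG00000066652, chr1:180893108-180899107) measured 415, 393 and 388 CPM in WT and 114 and 123 in KO. This corresponds to 11453, 12803 and 11146 counts against 3255 and 3781. The log2 fold change was -1.75 (standard error 0.049), lower than that of all but 0.803% of the tested genes. The set was chosen with this fall known, so no support is drawn from the rank. Lefty1 (ENSMUSG00000038793, chr1:180935022-180938401) measured 169, 162 and 158 CPM in WT and 52.6 and 55.6 in KO. Its log2 fold change was -1.59 (standard error 0.050). Lefty1 and Lefty2 were thus lower in both KO libraries, and no KO value came near the WT range.

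The 2 Lefty genes are close copies, so reads could be split between them by the counting. Summed, they gave 16099, 18069 and 15694 counts in WT, against 4753 and 5489 in KO, and a log2 fold change of -1.70 (standard error 0.047). Lefty2 made up 70.9 to 71.1% of this sum in WT and 68.5 to 68.9% in KO. Reassigning reads between the copies would leave the sum as it is. Of the 393 tested genes with a WT level in CPM, not corrected for length, at or above that of Lefty2, itself included, 3 had a log2 fold change at or below its own, and 224 were called lower. Over all levels, 0.803% of tested genes had a log2 fold change below that of Lefty2, and 21.4% were called lower. A log2 fold change at or below -1 was found in 3.37%. The fall of Lefty2 was known when the set was chosen, so its rank is a description only.

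The receptors did not move together. Acvr1b (chr15:101174072-101213684), the type I receptor, measured 37.5, 36.4 and 38.3 CPM in WT and 49.1 and 46.3 in KO. Both KO values were above all WT values, and the log2 fold change was 0.35 (standard error 0.051). Acvr2b (chr9:119401583-119442148), a type II receptor, measured 39.98, 38.0 and 34.7 CPM in WT and 36.2 and 36.5 in KO. Its groups overlapped, and its log2 fold change was -0.05 (standard error 0.061), or 0.02 with upper-quartile scaling.

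Among the signal transducers, Smad3 (chr9:63646766-63757994) measured 37.3, 37.7 and 38.5 CPM in WT, against 30.3 and 29.9 in KO, and had a log2 fold change of -0.33 (standard error 0.052). Smad2, on chromosome 18, measured 92.9, 89.5 and 89.2 CPM in WT, against 102 and 99.5 in KO, and had a log2 fold change of 0.15 (standard error 0.045). Both genes encode transducers of the same signal, and in KO cells 1 was lower and the other higher in both libraries. Smad7, the inhibitor, measured 153, 143 and 147 CPM in WT and 138 and 148 in KO. The groups overlapped, and the log2 fold change was -0.04 (standard error 0.047), or 0.02 with upper-quartile scaling.

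In the 5 mESC libraries, Slc7a3 had the profile closest to that of Lefty2 among 16422 genes, measured as the Euclidean distance between log2 CPM values after subtracting each gene's WT mean. Its distance was 0.0693, and the next were Nod1 (0.0738), Rhox6 (0.0987), Prdm1 (0.103) and Ebp (0.120). Such a distance depends mostly on the difference between KO and WT, by which the set was chosen, so this is a description only. The log2 fold changes of these genes ran from -1.82 (Rhox6) to -1.70 (Ebp), and Rhox6 had only 24 and 27 counts in KO. Slc7a3 encodes an amino acid transporter, Nod1 a sensor of bacterial cell wall, Prdm1 a transcriptional repressor and Ebp an enzyme of sterol synthesis. Slc7a3 counts were 9113 to 10380 in WT and 2644 and 3155 in KO. Slc7a3, Rhox6 and Ebp lie on the X chromosome, where KO levels were lower for 88.3% of the 596 genes that reached 1 CPM, against 49.0% of 15286 autosomal genes. All 10 pathway genes are autosomal, and in a fit to autosomal genes alone their log2 fold changes kept their signs.

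The rest of the pathway was read from 4 lists of 36 genes, of which 33 were tested in mESCs. Against the 43.7% called among all tested genes, 13 of the 33 were called, 5 higher and 8 lower, and 20 did not pass. Their median log2 fold change was -0.05, beside 0.00 over all tested genes. Gdf3 and Fstl3 were among those that differed by at least 1 on the log2 scale with groups that did not overlap, a combination met by 7.61% of all tested genes.

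Of 10 further ligands, antagonists and proteases, 1 was higher, 2 were lower and 7 did not pass. Gdf3, a ligand that signals through the same receptors and Tdgf1, measured 63.3, 64.1 and 66.1 CPM in WT and 23.5 and 27.99 in KO. It fell by 1.32 on the log2 scale (standard error 0.067, edgeR adjusted p = 7.88e-09). Fstl3, a secreted inhibitor of activins, was higher at a low level, with a mean of 7.62 against 3.75 CPM (log2 fold change 1.01, standard error 0.17, edgeR adjusted p = 0.000292). Pcsk6, another convertase of Nodal, was lower, at 44.0 against 58.5 CPM (log2 fold change -0.41, edgeR adjusted p = 0.00011). The activin subunit Inhba, at 55.6 CPM in WT and 52.0 in KO, did not pass.

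Of 5 receptors and co-receptors tested, 2 were higher and 2 lower. Acvr2a, the other type II receptor, was lower, at 39.8 against 50.5 CPM (log2 fold change -0.35, edgeR adjusted p = 0.00012), as was the TGF-beta receptor Tgfbr1 (log2 fold change -0.28, edgeR adjusted p = 0.00192). Tgfbr3 was higher (log2 fold change 0.46, edgeR adjusted p = 0.00692), and so was Tgfbr2, named here only to complete the count. Cfc1, the relative of Tdgf1, had counts of 6, 5 and 8 in WT, against 0 in both KO libraries, which allows up to 0.105 and 0.0976 CPM there, and was too low to test.

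Inside the cell, 1 of 13 genes was higher, 3 were lower and 9 did not pass. Foxh1, the DNA-binding partner of Smad2 and Smad3, was lower, with 14.2, 14.5 and 13.6 CPM in WT and 11.4 and 10.9 in KO (log2 fold change -0.34, edgeR adjusted p = 0.00329). Zfyve9, which presents Smad2 and Smad3 to the receptor, was lower (log2 fold change -0.22, edgeR adjusted p = 0.00203), and Rnf111, named to complete the count, was the third. Skil, a repressor of SMAD activity, was higher (log2 fold change 0.16, edgeR adjusted p = 0.00542). Smad4, at 73.9 CPM in WT and 77.2 in KO, did not pass.

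Among 5 further targets tested, 1 was higher, 1 was lower and 3 did not pass. Eomes, a T-box gene of mesendoderm and trophectoderm, was the higher one and measured 11.2, 10.1 and 10.95 CPM in WT and 19.2 and 18.9 in KO (log2 fold change 0.82, standard error 0.076, edgeR adjusted p = 1.86e-06). Eomes stands also in the trophectoderm marker list above, whose sum was higher in KO. Lhx1 had at most 16 counts in any library and did not pass (edgeR adjusted p = 0.34).

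The BMP branch, which shares the superfamily but signals through other SMADs, was read beside it. Of its 13 genes, 6 were called higher and 3 lower, beside 22.3% and 21.4% of all tested genes, and the median log2 fold change was 0.26, beside 0.00. Id1, a direct BMP target, measured 12.0, 12.0 and 11.8 CPM in WT and 25.1 and 26.6 in KO (log2 fold change 1.11, standard error 0.067, edgeR adjusted p = 3.64e-08). The ligands Bmp4 and Bmp7 were higher, both with a log2 fold change of 0.61 (edgeR adjusted p = 0.000218 and 0.000203). No test compared this branch with the Nodal branch.

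**Figure D2:**
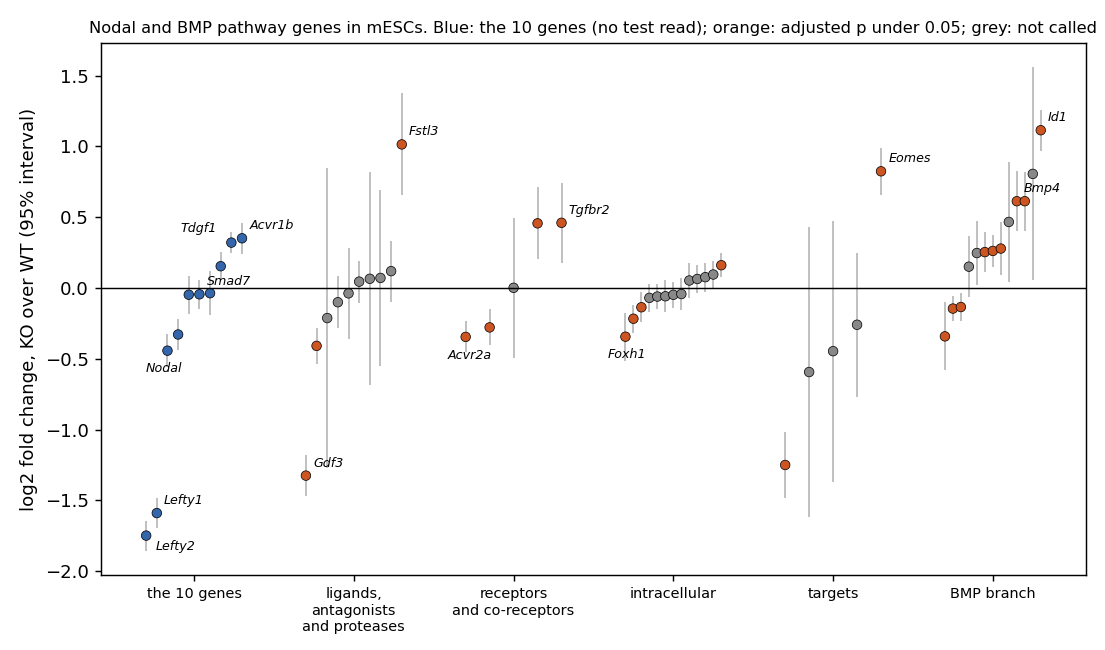
Log2 fold change of KO over WT in mESCs (vertical axis) with 95% intervals of the edgeR fit, for the 10 genes (blue, given without a test), 4 lists of other pathway genes and the BMP branch. Orange points passed an adjusted p of 0.05 and grey points did not, and Lefty2 (-1.75), Lefty1 (-1.59) and Gdf3 (-1.32) lie lowest.

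In WT mESCs, H3K79me2 covered part of every one of the 10 genes and H3K79me3 part of 4, and in KO mESCs no peak of either mark lay over any of them. Regions are unions of overlapping peaks that hold a peak of each WT list, so their edges may come from 1 list. A gene was counted when at least 1 bp of its body lay in a region. H3K79me2 regions lay over 42.5% of 18589 tested genes with a known position. Among the 5349 genes whose WT level in CPM lay in the range spanned by the 10, it was 90.1%, so the count of 10 is close to what genes of this level have. H3K79me3 regions lay over Nodal, Lefty2, Tdgf1 and Smad7, 4 of 10, against 10.3% of all genes and 25.0% of those in the same range of level. From WT replicate 1 alone, H3K79me3 peaks lay over 7 of the 10, against 26.8% of all tested genes. KO peaks lay over 0.0646% and 0.0538% of genes for H3K79me2 and over 0.269% and 0.802% for H3K79me3. The lists give no read counts, so their depth is unknown, and the absence of a peak means that none was called.

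**Figure D3:**
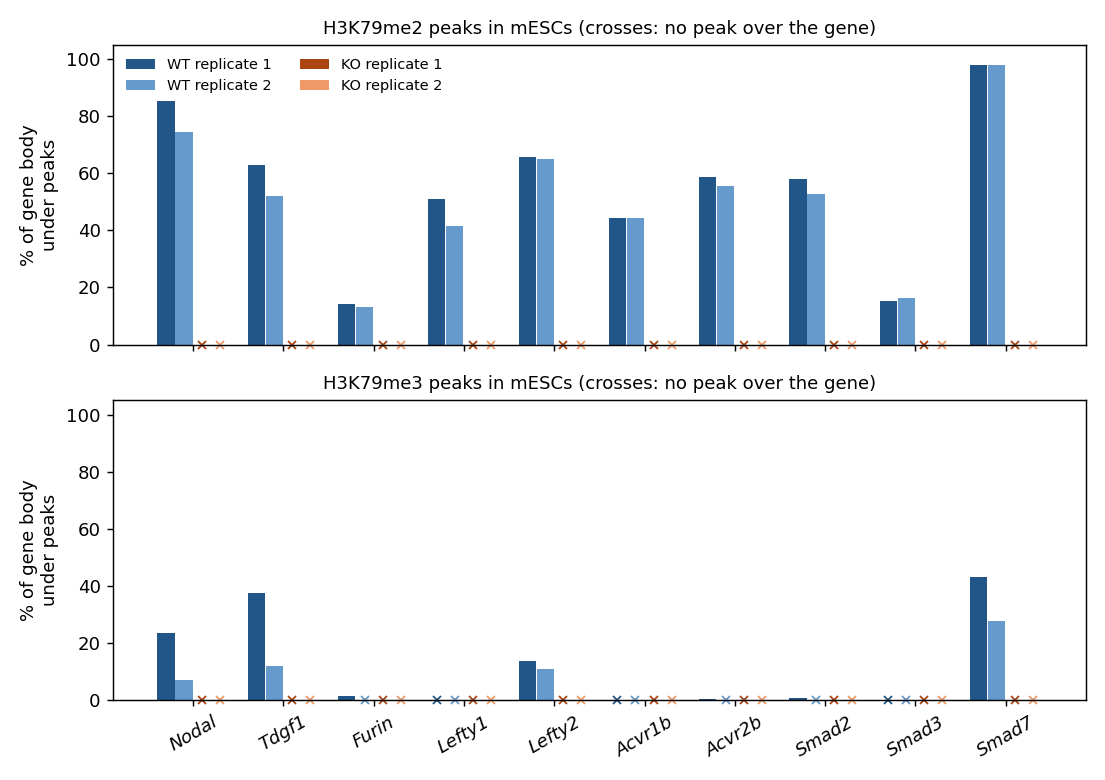
Percent of the gene body under called peaks for each of the 10 genes in WT and KO mESCs, H3K79me2 above and H3K79me3 below, with 1 bar per library. Crosses at 0 mark libraries without a peak over the gene, which is every KO library; Smad7 (98.0 and 97.8%) and Nodal (85.1 and 74.3%) have the tallest H3K79me2 bars.

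The genes differed widely in how far the mark reached. Smad7 had 98.0 and 97.8% of its body under H3K79me2 peaks in WT replicates 1 and 2, with a largest fold enrichment over background of 12.7 and 16.6, as the authors' peak lists give it. Nodal had 85.1 and 74.3% (enrichment 11.1 and 12.2), from one region at chr10:61418271-61423375 and a second near its end. Lefty2 had 65.7 and 64.9% (enrichment 6.05 and 6.89), and Lefty1 had 51.0 and 41.4% (enrichment 5.64 and 5.80). Both antagonists thus lay between the fully covered Smad7 and the sparsely covered Furin.

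Tdgf1 had 62.8 and 52.1% under H3K79me2 peaks, in one region at chr9:110941591-110945786 that ended 4.57 kb after the start. The receptor genes are longer, and the mark filled their first part. Acvr1b had 44.3% in both replicates, with regions from 0.151 to 20.1 kb after the start of a gene of 39.6 kb. Acvr2b had 58.6 and 55.4%, reaching 26.7 kb into 40.6 kb.

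Smad2 had 57.9 and 52.6% under H3K79me2 peaks. Smad3, the longest of the 10 at 111 kb, had 15.3 and 16.2%, in 14 separate regions. Furin had 14.1 and 13.2%, with an enrichment of 4.13 and 4.39. The median over covered genes of any level and length was 20.2 and 18.3%, so 8 of the 10 lay above it and Smad3 and Furin below. Coverage was not compared with that of genes of like level or length.

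Trimethylation was narrower than dimethylation on each gene that had both. Smad7 had 43.2 and 27.7% of its body under H3K79me3 peaks, Tdgf1 37.6 and 11.9%, Nodal 23.6 and 7.29%, and Lefty2 13.6 and 10.9%. Replicate 2 was lower for all 4, and its list was the shorter one. WT replicate 1 alone had small H3K79me3 peaks over Furin (1.67%), Smad2 (0.764%) and Acvr2b (0.557%). Lefty1, Acvr1b and Smad3 had none in either list.

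The Lefty genes are close neighbours on chromosome 1. In a stretch of 75 kb around them, the WT lists held 18 and 15 H3K79me2 peaks and 4 and 6 H3K79me3 peaks, and each of the 4 KO lists held 0. Lefty2 lay under one H3K79me2 region, chr1:180891176-180897211, which began before the lower end of its annotation, and under H3K79me3 regions at chr1:180894560-180894923 and chr1:180895063-180895753. Lefty1 lay under one H3K79me2 region, chr1:180934262-180936746. The H3K79me3 peaks with the highest enrichment in the stretch lay between the Lefty genes, within chr1:180904444-180906505. They reached 5.18 and 5.20 in WT replicates 1 and 2, against 4.67 and 4.73 over Lefty2. H3K79me2 peaks at the same place reached 3.84 and 8.39, against 6.05 and 6.89 over Lefty2. An RNA gene, Gm39715, overlaps Lefty1 in the annotation, so marks and reads there may belong to either.

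**Figure D4:**
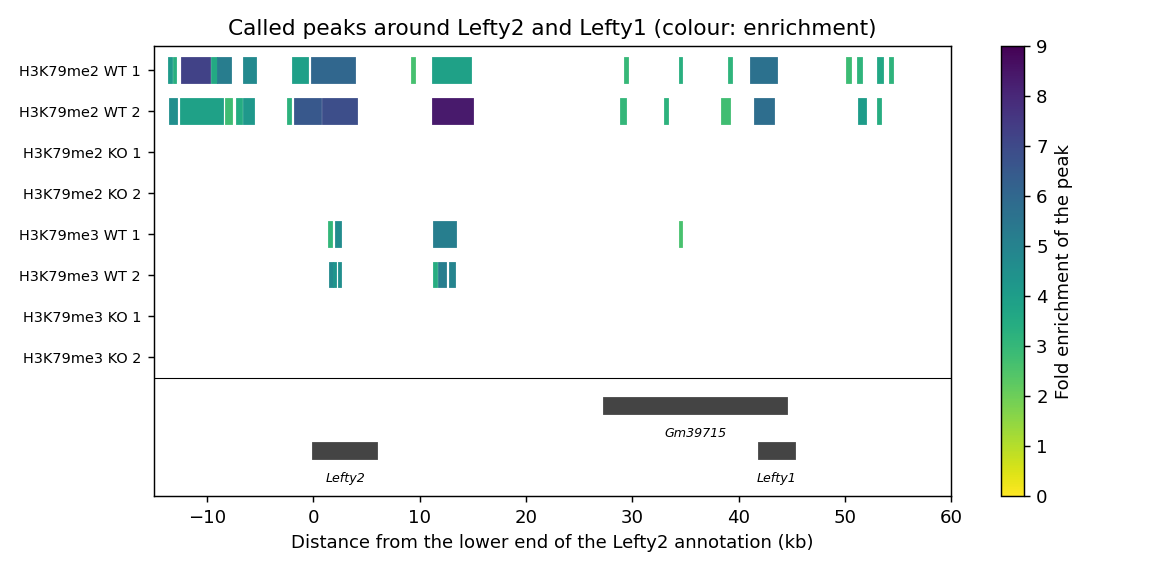
Called peaks in each of the 8 lists (rows) along 75 kb around Lefty2 and Lefty1, in kb from the lower end of Lefty2, coloured by the authors' fold enrichment, above the annotated extents of Lefty2, Lefty1 and Gm39715; other genes of the stretch are not drawn. The 4 WT rows carry peaks over Lefty2, H3K79me2 alone lies over Lefty1, and the 4 KO rows are empty.

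Set side by side, the peaks over all 10 genes were absent in KO cells while their RNA took different courses. Lefty2 and Lefty1, with 65.7 and 51.0% under H3K79me2 peaks in WT replicate 1, were more than 3-fold lower. Smad7, the most covered of the 10 by both marks, had a log2 fold change of -0.04, or 0.02 with upper-quartile scaling. Tdgf1, with both marks, was higher. Among the 36 genes of the other pathway lists, 18 had an H3K79me2 region and 7 an H3K79me3 region, beside 42.5% and 10.3% of all genes, so the first count is close to the share over all genes. Of the named genes of those lists, Gdf3, Foxh1, Pcsk6, Acvr2a, Tgfbr1, Zfyve9 and Rnf111, all lower, had H3K79me2 regions. Fstl3, Eomes, Tgfbr2 and Tgfbr3, all higher, had neither mark. Skil, also higher, had regions of both marks, and so did Smad4, which did not pass.

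In 8-cell embryos, no gene of the pathway passed the edgeR test after SGC0946, and the Lefty genes were hardly detected. Lefty1 counts were 0 and 0 in the DMSO pools, against 0 and 1 in the inhibitor pools, and Lefty2 had 0 and 2 against 0 and 0. A count of 0 allows up to 0.114 CPM in the shallowest of these libraries, for counting error only, and neither gene was tested. A difference like that of the Lefty genes in mESCs was therefore not detectable at this depth. The other 8 genes were tested. None was called, and 0% of the 14351 tested genes were. At an unadjusted p under 0.05 there were 1 of the 8 and 1169 of all genes (8.15%), and DESeq2 called 126 genes. Groups did not overlap for 3 of the 8 (Nodal, Tdgf1 and Smad2), against 39.2% of all tested genes.

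**Figure D5:**
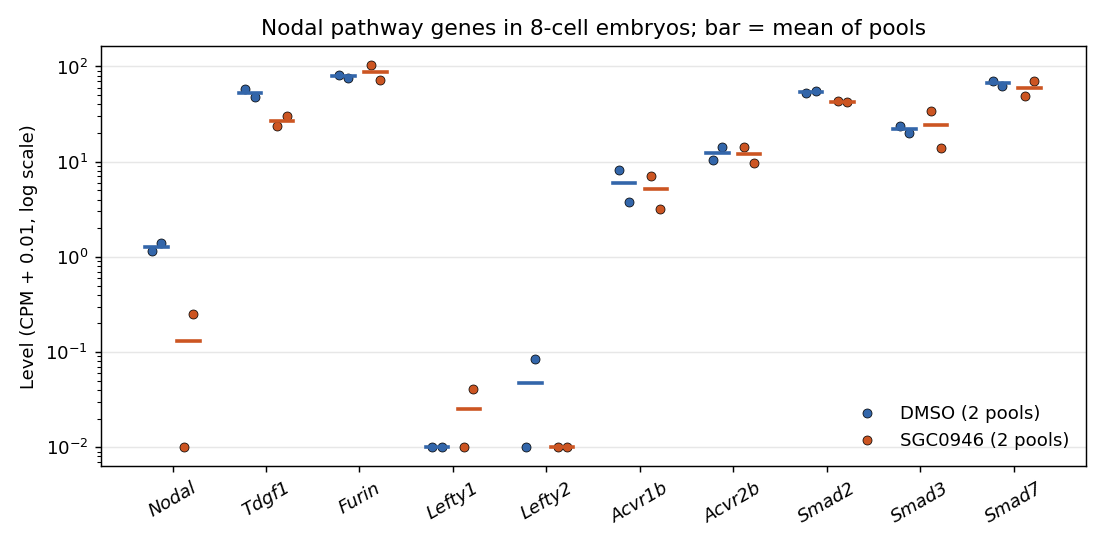
Level of the 10 genes in pools of 8-cell embryos (CPM plus 0.01, log axis), with 1 point per pool (2 DMSO in blue, 2 SGC0946 in orange) and a bar at the mean. Points at 0.01 are counts of 0; Tdgf1 shows 57.8 and 47.4 CPM with DMSO above 23.4 and 30.1 with the inhibitor.

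Tdgf1 had the lowest p of the 8 genes in embryos. It measured 57.8 and 47.4 CPM with DMSO and 23.4 and 30.1 with the inhibitor, from 1568 and 1257 counts against 614 and 988. Both inhibitor pools lay below both DMSO pools, and the log2 fold change was -0.97 (standard error 0.24, 95% interval -1.48 to -0.47). The edgeR p was 0.00108 before and 0.289 after adjustment over all genes, so it was not called. DESeq2 gave an adjusted p of 0.016, edgeR without inhibitor replicate 2 gave 0.0172, and over all alternatives the adjusted p ran from 0.0129 to 0.511. In KO mESCs Tdgf1 had been higher, by 0.32 on the log2 scale; the tables were normalized separately, the agents differ, and the difference between these effects was not tested.

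Nodal was near the limit of detection in embryos, at 31 and 37 counts in the DMSO pools, against 0 and 8 in the inhibitor pools. Its mean was 1.27 against 0.122 CPM, and its log2 fold change of -3.30 had a standard error of 1.94 (edgeR adjusted p = 0.729). Both inhibitor pools lay below both DMSO pools, but so few counts leave a 95% interval from -7.47 to 0.86.

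Smad2 measured 52.7 and 55.0 CPM with DMSO and 42.9 and 42.3 with the inhibitor. The groups did not overlap, and the log2 fold change of -0.34 (standard error 0.20) did not pass (edgeR adjusted p = 0.74). The remaining 5 tested genes had log2 fold changes between -0.22 and 0.15, each with overlapping groups. Smad3 spread widely in the inhibitor pools, at 34.05 and 14.0 CPM against 23.9 and 19.98 with DMSO. Smad7 measured 70.7 and 62.9 CPM with DMSO and 49.1 and 70.9 with the inhibitor, and Furin 80.8 and 76.4 against 104 and 71.5. The receptors had fewer counts. Acvr1b stood at 8.14 and 3.73 CPM against 7.05 and 3.16, and Acvr2b at 10.3 and 14.2 against 14.3 and 9.58.

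Of the 36 genes of the other pathway lists, 25 were tested in embryos, 0 were called and 2 had an unadjusted p under 0.05, with a median log2 fold change of 0.03 beside 0.01 over all tested genes. Gdf3 measured 12.7 and 11.1 CPM with DMSO and 2.36 and 6.33 with the inhibitor (log2 fold change -1.44, standard error 0.49, edgeR adjusted p = 0.437). Skil measured 10.9 and 12.2 CPM with DMSO and 41.8 and 10.4 with the inhibitor, so inhibitor replicate 1 alone lay above the DMSO pools, with a log2 fold change of 1.17 (edgeR adjusted p = 0.541). Without inhibitor replicate 2, edgeR called 3 of these genes, Gdf3 (log2 fold change -2.33), Skil (1.85) and the target Gsc (1.83). The other genes named by lowest p within their lists (Pcsk6, Pcsk5, Tgfbr1, Acvr2a, Tgfbr3, Smurf1, Smurf2, Gsc, Eomes and Mixl1) had unadjusted edgeR p-values from 0.0506 to 0.961. In the BMP branch 12 genes were tested, 0 were called and 1 had an unadjusted p under 0.05. Id3 had the lowest p there, at 38.9 and 33.96 CPM against 9.45 and 18.9 (log2 fold change -1.36, standard error 0.33, edgeR adjusted p = 0.289). Dot1l itself measured 278 and 256 CPM with DMSO and 221 and 214 with the inhibitor (log2 fold change -0.29, edgeR adjusted p = 0.582).

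Of the marker lists, those of pluripotent cells and of 8-cell embryos had sums in embryos that did not overlap between treatments. The pluripotent list summed to 1602 to 1684 CPM with DMSO and 1116 to 1276 with the inhibitor, and the 8-cell list to 2115 to 2256 against 1520 to 1927. These lists share Nanog and Pou5f1, the latter at 700 and 716 CPM with DMSO and 458 and 547 with the inhibitor. Their sums are therefore separate only in part. In the 8-cell list alone, Dppa3, Obox6 and Tfap2c averaged 920, 294 and 230 CPM with DMSO and 750, 242 and 205 with inhibitor. The primitive endoderm list summed to 404 to 421 against 364 to 405, and the trophectoderm list to 79.9 to 80.8 against 53.5 to 83.6. Their part in the values of Tdgf1 and Nodal was not tested. Cumulus cell markers summed to at most 1.24 CPM, with Ptx3 and Inha at 0, and fibroblast markers to at most 2.86 CPM, with Col3a1, Dcn, Lum and Twist2 at 0.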

How the data were processed

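The 10 genes, the other lists and the markers were chosen with earlier results of these data known. The authors deposited estimated counts (expected counts) per Ensembl gene for mESCs and whole read counts per gene symbol for embryos. Per the labels' protocols, mESC RNA was depleted of ribosomal RNA (KAPA HyperPrep with RiboErase) and embryo libraries used the SMARTer Stranded Pico kit. Per the submitters' processing notes, kallisto, STAR and HTSeq were used for mESC RNA (kallisto alone is named for WT replicate 1), STAR and HTSeq for embryo RNA, Bowtie2 and MACS2 for ChIP, and mm10 as build. Versions, roles, annotation and strand settings are not given in the sources used here. Reads of overlapping genes (Gm39715 with Lefty1, Gm51710 with Smad3, Gm41776 with Smad7, Gm44851 with Furin, Mir6962 with Acvr1b) are therefore uncertain. In the deposited peak lists, called per library by the authors, the values of a peak are those of the caller: a score, a fold enrichment (ratio), a −log10 p and a −log10 q. The control and thresholds are not stated, and the input libraries were not used here.

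Of the expected counts, zeros included, 59.2 to 60.0% were whole numbers within a small rounding tolerance. All were rounded before the fits, and 7 of the 10 genes had values that were not whole. Rows without a symbol held at most 0.0163% of the counts. Each table was fitted alone with edgeR 4.0.16 in R 4.3.3 (filterByExpr, TMM, quasi-likelihood F test, Benjamini-Hochberg adjustment, called at an adjusted p under 0.05), which was also tested on simulated counts. CPM values use the TMM-scaled totals, and log2 CPM a prior count of 2. Intervals of 95% come from the fit. Named genes of the other lists were those called with an absolute log2 fold change of at least 1 and separate groups. A list with fewer than 3 such genes was filled up by lowest p to 3, and Inhba, Smad4, Cfc1 and the genes named to complete a count were chosen after their values were seen. A region was the union of peaks of both WT lists that overlap by at least 1 bp, and gene positions and promoters came from RefSeq tables of GRCm38.p6. Peak work used Python 3.11.15, numpy 2.4.6 and pandas 2.3.3, and plots matplotlib 3.10.9. Alternatives were DESeq2 1.42.0, its size factors or upper-quartile scaling in edgeR, no filter, a replicate block, leaving out each library, autosomal genes only, the Lefty genes summed, and for peaks a body extended by 2 kb, 50% of the region inside the gene, a −log10 q of at least 5 and single WT lists. No columns were left without a sample. Some genes that the naming rule chose or that neighbour the 10 are not reported here.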

Additional observations from a re-analysis of the deposited data

How the results depend on the processing

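In mESCs, 7 of the 10 genes kept their direction in all 11 alternatives. The exceptions, with log2 fold changes near 0, were Acvr2b and Smad7 in 1 alternative each and Furin in 3. Lefty2 ran from -1.81 to -1.68 on the log2 scale, Lefty1 from -1.63 to -1.52, Nodal from -0.52 to -0.38 and Tdgf1 from 0.30 to 0.39. Smad2 ran from 0.13 to 0.22, and it was no longer called without WT replicate 2 or without WT replicate 3. Because the genes were chosen on this contrast, nothing is read from their calls. The number of genes called was 8548, and 6755 with DESeq2, the lowest, to 8947 without the filter, the highest. Of the other pathway genes 11 to 15 were called. Upper-quartile scaling shifted the median of all genes by 0.0651 and gave 63.4% of calls as higher, against 51.0%.

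In embryos, where edgeR called 0 genes, DESeq2 called 126 and edgeR without a filter 111. Leaving out each library gave 4 to 365, the highest without inhibitor replicate 2, when 3 of the other pathway genes were called, against 0 when any other library was left out. Such a fit leaves 1 library in a group, which is assumed to vary like the other group. Tdgf1 was called in 4 of 9 alternatives, with log2 fold changes from -1.17 to -0.80. Nodal, Tdgf1 and Smad2 kept their direction in all 9, and 5 of the 8 did not. Leaving out each library, Acvr1b ran from -0.90 to 0.45 on the log2 scale, Acvr2b from -0.35 to 0.22, Smad3 from -0.64 to 0.63, Smad7 from -0.44 to 0.0905 and Furin from -0.13 to 0.40. Acvr1b turned positive without DMSO replicate 1 or inhibitor replicate 2, Acvr2b without DMSO replicate 2 or inhibitor replicate 2, and Smad3, Smad7 and Furin changed sign without inhibitor replicate 1. The cause was not tested.

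Replicate numbers were shared between groups, but the deviations of same-numbered libraries correlated at 0.0046 and -0.027 in mESCs and 0.052 in embryos, so the numbers were not taken as a pairing. With a replicate block, 8052 genes were called in mESCs and 171 in embryos, where Tdgf1 had an adjusted p of 0.0129. H3K79me2 lay over all 10 genes in every alternative run, and over 33.8 to 47.5% of all tested genes. H3K79me3 lay over 4 of the 10 without WT replicate 1 and over 7 without WT replicate 2, against 11.6% and 26.8% of all tested genes. With a −log10 q of at least 5 it lay over 3, against 6.05%. Low counts limit Nodal and the Lefty genes in embryos, and the unknown depth of the peak lists limits what the absence of a peak shows.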
